A study of Mus musculus with 29 samples.

Results

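The 9 genes described here encode subunits of the Polycomb repressive complexes: Ezh1, Ezh2, Eed, Suz12 and Jarid2 of complex PRC2, and Bmi1, Cbx2, Cbx7 and Cbx8 of complex PRC1. They were chosen by symbol, with earlier results of these data known, as 9 of the 55376 gene symbols counted in each RNA-seq library. All 9 passed the filter on low counts, along with the rest of the 33690 genes tested. The libraries came from hematopoietic stem cells (HSCs), the rare bone marrow cells that maintain all blood lineages, sorted from mouse marrow as lineage-negative, cKit+, Sca1+, CD34-, Flk2- and CD150+ cells. There were 4 groups, with 4 libraries of young wild-type HSCs (YWT), 4 of old wild-type HSCs (OWT), 4 of young HSCs labelled Gadd45KO (YKO) and 7 of old HSCs with that label (OKO). The knockout concerns Gadd45b, which codes for a stress-induced protein linked to DNA demethylation. The paper describes a bred strain of GADD45B knockout mice. The knockout is therefore taken as germline, carried by every cell of a YKO or OKO mouse and not by HSCs alone. The labels do not state this. Ages are given only as young and old. The labels name no treatment in any group. The comparisons addressed were age in wild-type HSCs (OWT vs YWT), the knockout label in young HSCs (YKO vs YWT) and in old HSCs (OKO vs OWT), age under the knockout label (OKO vs YKO), and the difference between both age effects.

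Polycomb complexes keep developmental and cell cycle inhibitor genes silent through chromatin marks. PRC2 places methyl groups on lysine 27 of histone H3 through its catalytic subunit, which is either Ezh2, the form prevalent in dividing cells, or Ezh1, the form prevalent in resting cells, and it needs Eed and Suz12 to be active. Jarid2 helps to bring PRC2 to its target sites. Canonical PRC1 binds that mark through a chromobox protein such as Cbx2, Cbx7 or Cbx8 and compacts chromatin or ubiquitylates histone H2A, and Bmi1 is one of the ring finger proteins in its core. In HSCs, Bmi1 is known as a requirement for self-renewal, and Cbx7 as a promoter of self-renewal whose place in PRC1 is taken by Cbx2 or Cbx8 in more differentiated progenitors.

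Promoters are shown for the PRC2 core genes, because scaled counts of Ezh2, Eed and Suz12 rose and fell together across the libraries. Those of Ezh1 had a negative r with each of them, at -0.51, -0.26 and -0.34. Each run is the sequence immediately upstream of a RefSeq transcript start on GRCm38.p6 (mm10), written 5′ to 3′ on the gene's strand, with 250 bases for Eed, Suz12 and Ezh1 and 153 bases for Ezh2. Capitals mark CCAAT boxes, the element bound by NF-Y, and the E2F element TTTCCCGC, each searched on both strands, so that a box on the reverse strand reads ATTGG.
Ezh2, chr6:47595031-47595183, minus strand: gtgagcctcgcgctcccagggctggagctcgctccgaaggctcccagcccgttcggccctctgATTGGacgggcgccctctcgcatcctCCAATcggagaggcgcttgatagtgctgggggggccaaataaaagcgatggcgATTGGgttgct
Eed, chr7:89980977-89981226, minus strand: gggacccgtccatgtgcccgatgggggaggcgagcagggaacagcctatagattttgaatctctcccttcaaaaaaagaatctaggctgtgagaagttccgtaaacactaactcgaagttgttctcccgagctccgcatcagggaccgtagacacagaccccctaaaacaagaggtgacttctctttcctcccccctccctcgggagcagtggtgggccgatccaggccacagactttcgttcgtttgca
Suz12, chr11:79992856-79993105, plus strand: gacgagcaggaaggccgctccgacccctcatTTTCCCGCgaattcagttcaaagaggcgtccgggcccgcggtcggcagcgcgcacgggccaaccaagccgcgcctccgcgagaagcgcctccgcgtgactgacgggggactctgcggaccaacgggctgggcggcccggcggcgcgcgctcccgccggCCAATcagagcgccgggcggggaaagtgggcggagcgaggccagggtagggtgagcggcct
Ezh1, chr11:101226464-101226713, minus strand: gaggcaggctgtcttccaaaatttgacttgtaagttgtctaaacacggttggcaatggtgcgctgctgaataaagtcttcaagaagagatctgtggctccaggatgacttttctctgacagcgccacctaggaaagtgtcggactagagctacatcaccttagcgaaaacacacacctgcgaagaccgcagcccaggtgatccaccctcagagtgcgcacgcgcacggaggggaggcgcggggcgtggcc
The Ezh2 window held 3 CCAAT boxes and no TTTCCCGC, with the boxes at 11, 64 and 90 bases before the start. The Suz12 window held 1 CCAAT box at 61 bases and 1 TTTCCCGC element at 219 bases. The Eed and Ezh1 windows held none of these letters, nor did any of the 4 windows hold the other E2F form searched, TTTGGCGC. Among the 250-base upstream windows of 32851 RefSeq promoters, 33.8% held a CCAAT box, 0.895% held TTTCCCGC and 0.417% held TTTGGCGC. Of the Ezh2 window 28 bases, and of the Eed window 7 bases, lie in exons of GENCODE M21, and the rest of these windows lies outside the exons of that annotation. RefSeq promoter sequences were matched for 8 of the 9 genes, all but Cbx2. Of the 250-base windows not printed, that of Cbx7 held 1 CCAAT box, that of Cbx8 held 2, and that of Bmi1 held 0. Jarid2 had 1 box at 1 of its RefSeq starts and 0 at the other. None of these windows held either E2F form. Only these exact letters were searched, so windows without them may still hold other E2F sites. Whether these elements bear on the members' levels was not tested.

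The genes lie on mm10 chromosome 11 (Ezh1, 101191115 to 101226463; Suz12, 79993106 to 80034123; Cbx2, 119022962 to 119031270; Cbx8, 119036305 to 119040969), chromosome 6 (Ezh2, 47530139 to 47595341), chromosome 7 (Eed, 89954654 to 89980983), chromosome 13 (Jarid2, 44729474 to 44921643), chromosome 2 (Bmi1, 18677018 to 18686629) and chromosome 15 (Cbx7, 79915807 to 79971119). Cbx2 and Cbx8 are neighbours, transcribed toward each other. Counts are summed over all exons of a gene, coding and untranslated. Exons of Ezh2, Eed, Suz12 and Cbx7 overlap those of a gene on the opposite strand over 2.61%, 6.82%, 3.6% and 1.54% of their exonic length. Whether strand was used in counting is not given in the sources used here, so reads in those stretches cannot be assigned with certainty.

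The shallowest library held 22197555 counts and the deepest 77970627 (median 57562473), and between 216 and 16319 counts fell on a member gene, so counting error was small beside the spread between libraries. The titles of OWT1 to OWT4 and OKO4 to OKO7 begin with IB15 and the others do not, and the study's library sheet puts the prefixed libraries in the second sequencing batch. Age and title prefix therefore cannot be told apart in wild-type HSCs. OKO1 and OKO3 stood apart, with TMM factors of 1.826 and 1.413, while the others lay between 0.6919 and 1.244. Gadd45b itself was counted in every library, at 7.33 to 17.5 CPM in YWT, 5.14 to 14.3 in YKO, 10.1 to 15.5 in OWT and 2.83 to 6.93 in OKO, so the libraries labelled YKO were not separated from YWT by it, and groups are taken by label throughout. All 10 HSC markers were detected, summing to 2062 to 4353 CPM per library, and the 2 genes whose proteins the sort excludes, Cd34 and Flt3, summed to 74.88 to 332.6 CPM. The 10 B cell markers summed to 237.7 to 682.4 CPM in YWT, 71.22 to 214.2 in OWT, 214.5 to 1636 in YKO and 33.41 to 199.8 in OKO, with the highest sums in YKO1 and YKO2. These libraries also had the highest sums of the 8 T cell markers, 141.3 and 94.65 CPM, against 9.618 to 47.22 in the others. The 8 erythroid markers summed to 1689 to 4034 CPM in YWT, 1705 to 3052 in OWT, 2392 to 6229 in YKO and 640 to 5037 in OKO. The 8 granulocyte markers summed to 202.6 to 354.3 CPM in YWT, 578.6 to 764.8 in OWT, 49.9 to 224.7 in YKO and 201.6 to 540.2 in OKO. Labels name neither animals nor pools for the RNA libraries, so p-values measure the spread between these libraries, which may in part be technical. In bulk RNA, fewer cells of a type and less RNA per cell cannot be told apart.

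Levels of the 9 genes were compared per kilobase of exon. In YWT HSCs Eed was the highest at 20.4 ± 2.41 CPM per kb (SD, n = 4), followed by Bmi1 at 17.4 ± 5.59, Suz12 at 15.3 ± 2.02, Ezh1 at 13.1 ± 2.36, Jarid2 at 10.2 ± 1.9, Ezh2 at 10 ± 2.47 and Cbx7 at 9.98 ± 2.39. Cbx2, at 6.55 ± 0.382, and Cbx8, at 3.39 ± 0.794, were the lowest. Neighbours from Eed down to Cbx7 had overlapping ranges, while Cbx2 lay below each library of Cbx7, and Cbx8 below each library of Cbx2. Cbx7 thus had the highest level of the 3 chromobox genes in YWT HSCs, also in CPM, at 64.7 against 27.9 for Cbx2 and 12.5 for Cbx8. Its level per kilobase was close to that of Ezh2, at exonic lengths of 6487 and 6678 bases that include every annotated exon. In OWT and OKO the mean of Ezh1 ranked first, at 21.7 ± 8.35 and 18.1 ± 6.78 CPM per kb, with ranges that overlapped those of Bmi1 and Eed. Cbx8 ranked last in all 4 groups.

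Ezh1 varied more among old than among young libraries. In CPM (counts scaled to a common library size by the TMM method), Ezh1 was 90.3, 121, 97.7 and 79.6 in YWT1 to YWT4, and 102, 106, 111 and 108 in YKO1 to YKO4. In old HSCs it was 231, 193, 94.5 and 126 in OWT1 to OWT4, and ran from 76.9 through a median of 132.1 to 199 in the 7 OKO libraries. The young values lay in a narrow band, while OWT1, OWT2, OKO3, OKO4 and OKO5 stood well above it, OWT4 and OKO6 just above it, and OWT3, OKO1, OKO2 and OKO7 within or below the range of the YWT libraries. The coefficient of variation of Ezh1 was 18% in YWT and 3.35% in YKO, and 38.6% in OWT and 37.4% in OKO. The mean of OWT exceeded that of YWT by 0.73 on the log2 scale (SE 0.304, 95% confidence interval 0.099 to 1.359), with an edgeR p adjusted over all genes of 1 and overlapping groups. Without OWT1 the difference was 0.52, and with the title prefix as a covariate it was 0.38. With that covariate, which separates age from prefix only through the OKO libraries, OWT vs YWT gave -0.85 for Eed, -0.84 for Jarid2, -0.56 for Cbx2 and -0.86 for Ezh2, where the fit without it gave -0.16, -0.23, -0.03 and -0.52. The edgeR adjusted p with the covariate were 0.205, 0.208, 0.28 and 0.374 for these genes, so none was called.

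Ezh2 was 88.9, 53.3, 70.3 and 55.2 CPM in YWT1 to YWT4 and 92.6, 57.4, 76.3 and 84.2 in YKO1 to YKO4. In old HSCs it was 36.2, 57.1, 55.2 and 38.6 in OWT1 to OWT4, and from 18.4 through a median of 41.66 to 74.1 in OKO. In CPM the lowest libraries were OKO1 and OKO3, while by share of the library total the lowest was OKO5, at 0.00254%. OKO2 and OKO7, at 69 and 74.1 CPM, lay among the young libraries, so old and young groups overlapped in both genotypes. The log2 fold change was -0.87 in OKO vs YKO (SE 0.297, interval -1.482 to -0.25, edgeR adjusted p = 0.151) and -0.52 in OWT vs YWT (SE 0.343, interval -1.229 to 0.194, edgeR adjusted p = 1).

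**Figure D1:**
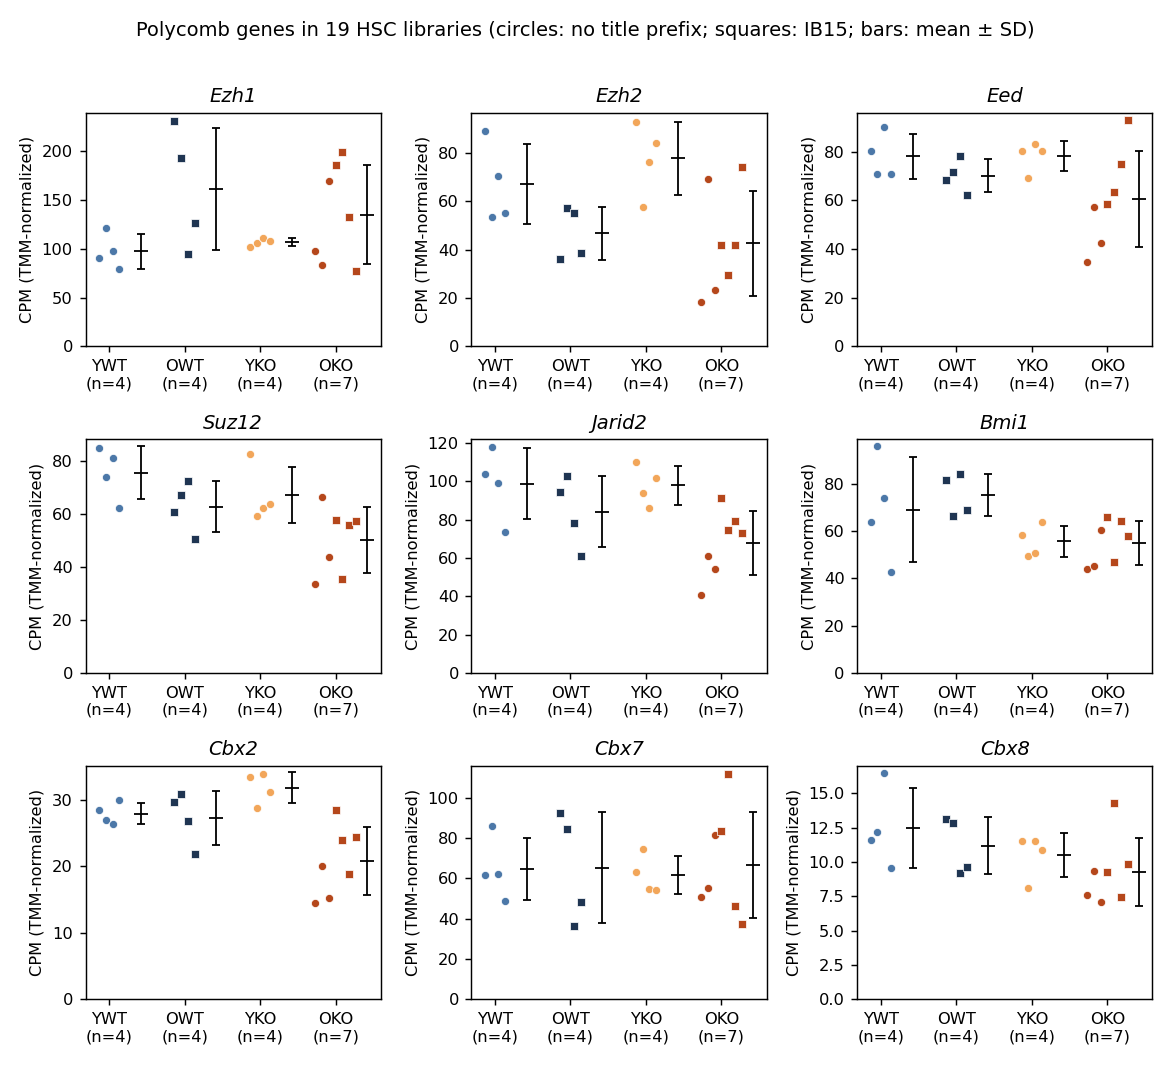
TMM-normalized CPM of each of the 9 Polycomb genes (vertical axes from 0) in YWT, OWT, YKO and OKO libraries, with circles for libraries without a title prefix, squares for those with IB15, and the mean ± SD to the right of each group. Ezh1 spans 76.9 to 231 CPM in the old libraries against 79.6 to 121 in the young ones, and Cbx2 lies at 14.5 to 28.4 CPM in OKO, below the 28.8 to 33.8 of YKO.

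The balance of both catalytic subunits can be read within a library, where no scaling between libraries enters. The log2 ratio of Ezh1 to Ezh2 counts was 0.02, 1.18, 0.48 and 0.53 in YWT1 to YWT4 and 0.14, 0.89, 0.54 and 0.36 in YKO1 to YKO4. In OWT1 to OWT4 it was 2.67, 1.76, 0.78 and 1.7, and in OKO it ran from 0.05 through a median of 2.15 to 2.85. Ezh1 counts exceeded Ezh2 counts in each of the 19 libraries, although Ezh1 is also the longer gene in exonic sequence. The group means were 0.55 ± 0.48 in YWT (SD, n = 4), 0.48 ± 0.32 in YKO (n = 4), 1.73 ± 0.77 in OWT (n = 4) and 1.73 ± 1.14 in OKO (n = 7). Of the old libraries, OWT3, OKO2 and OKO7 lay within the young range and the other 8 lay above it. The Cbx7 to Cbx2 ratio averaged 1.19 ± 0.4 in YWT, 1.17 ± 0.53 in OWT, 0.95 ± 0.3 in YKO and 1.62 ± 0.6 in OKO, and the Cbx7 to Cbx8 ratio 2.37 ± 0.36, 2.46 ± 0.38, 2.55 ± 0.44 and 2.79 ± 0.51 in that order. Each of these group ranges overlapped the others. These ratios are described without a test.

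**Figure D2:**
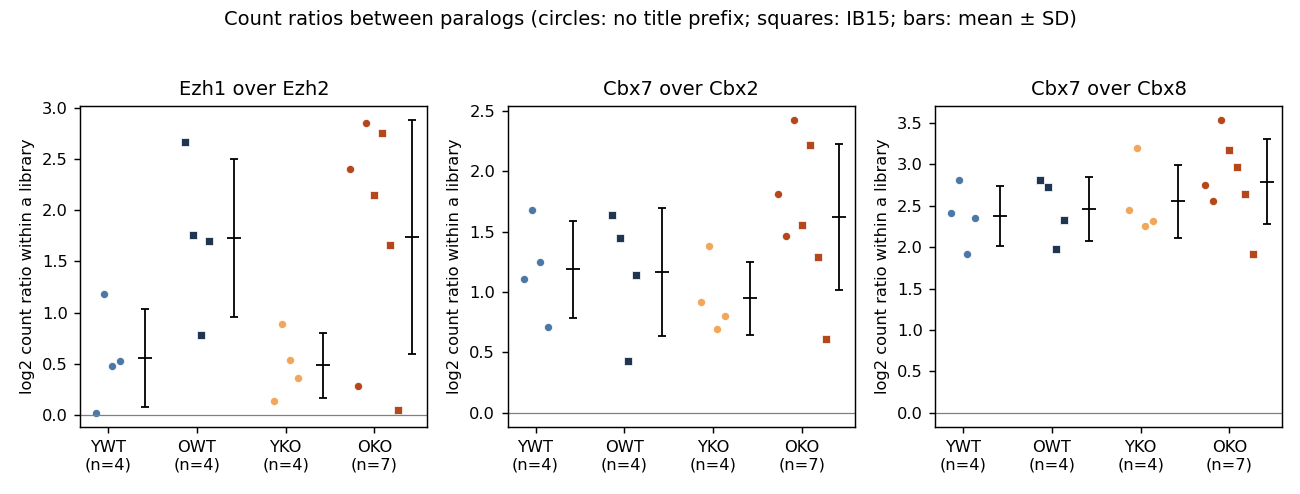
Log2 ratio of raw counts within each library for Ezh1 over Ezh2, Cbx7 over Cbx2 and Cbx7 over Cbx8, by group, with the mean ± SD beside the points. In the left panel 8 of 11 old libraries lie above the highest young value of 1.18, and the remaining old libraries are OWT3, OKO2 and OKO7.

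Among the other PRC2 genes, Eed, which reads the methylated histone tail, was 80.4, 70.9, 90.2 and 70.9 CPM in YWT1 to YWT4, 68.5, 71.7, 78.3 and 62.1 in OWT1 to OWT4, and 80.4, 69.1, 83.3 and 80.2 in YKO1 to YKO4. In OKO it ran from 34.6 through a median of 58.34 to 92.9, so in CPM the OKO group held both the lowest and the highest Eed value of the series. By share of the library total Eed was lowest in YWT2, at 0.0049%, and highest in YWT3, at 0.00916%. The log2 fold change in OKO vs YKO was -0.37 (SE 0.205, interval -0.796 to 0.055, edgeR adjusted p = 0.385). Jarid2 was 104, 118, 99.2 and 73.7 CPM in YWT1 to YWT4, 94.4, 103, 78.3 and 61.3 in OWT1 to OWT4, and 110, 93.9, 86.3 and 102 in YKO1 to YKO4. It ran from 40.7 through 73.17 to 91.5 in OKO, where only OKO4 reached the range of YKO. Its log2 fold change in OKO vs YKO was -0.53 (SE 0.204, interval -0.954 to -0.11, edgeR adjusted p = 0.197). The edgeR adjusted p was 0.0358 at -0.34 when only genes with a mean of at least 5 CPM were tested, and 0.258 at -0.45 without a filter. The former was short of the 1.5-fold change that a call requires. Suz12, the scaffold of PRC2, was 75.6 ± 10 CPM in YWT (SD, n = 4), 62.8 ± 9.53 in OWT (n = 4), 67.1 ± 10.7 in YKO (n = 4) and 50 ± 12.5 in OKO (n = 7). The OKO libraries spanned 33.7 to 66.5 CPM and overlapped each other group, and the fold change against YKO was -0.42 on the log2 scale (SE 0.192, edgeR adjusted p = 0.286).

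Of the PRC1 genes, Cbx2 was 28.5, 26.9, 26.3 and 29.9 CPM in YWT1 to YWT4, 29.6, 30.9, 26.8 and 21.8 in OWT1 to OWT4, and 33.4, 28.8, 33.8 and 31.1 in YKO1 to YKO4. In OKO it ran from 14.5 through a median of 20.03 to 28.4, so each OKO library lay below each YKO library, although OKO4, at 28.4, and YKO2, at 28.8, nearly met. The log2 fold change in OKO vs YKO was -0.61 (SE 0.182, interval -0.988 to -0.235), and its edgeR adjusted p, 0.0967, was the lowest of any member in the 5 comparisons. With DESeq2 the adjusted p was 0.0115 at a log2 fold change of -0.56, and with upper-quartile factors in edgeR it was 0.0352 at -0.49, both short of the 1.5-fold change that a call requires. With only genes of a mean of at least 5 CPM, edgeR gave an adjusted p of 0.0241 at -0.41, also short of that change. Without a filter it gave 0.144 at -0.53. Bmi1 was 63.6, 96, 74 and 42.6 CPM in YWT1 to YWT4, 81.7, 66.5, 84.2 and 68.8 in OWT1 to OWT4, and 58.5, 49.6, 50.8 and 63.6 in YKO1 to YKO4. Its OKO values ran from 44 through 57.93 to 66, each below the lowest OWT library. That separation depended on the scaling, since by share of the library total Bmi1 was 0.00404% to 0.00853% in OKO and 0.00604% to 0.00789% in OWT. The log2 fold change in OKO vs OWT was -0.45 (SE 0.192, interval -0.85 to -0.055, edgeR adjusted p = 0.592), -0.24 with upper-quartile factors and -0.16 with library totals. It was -0.31 in YKO vs YWT (SE 0.219, interval -0.767 to 0.143), where the YWT libraries spanned all of the YKO values. Cbx7 averaged 64.7 ± 15.5 CPM in YWT, 65.4 ± 27.4 in OWT, 61.8 ± 9.63 in YKO and 66.7 ± 26.6 in OKO, with the widest range, 37.3 to 112, in OKO. Cbx8 averaged 12.5 ± 2.9, 11.2 ± 2.07, 10.5 ± 1.62 and 9.26 ± 2.46 CPM in the same order. For Cbx7 and Cbx8 the groups overlapped in each comparison, and the intervals of all their log2 fold changes between groups covered 0 and stayed between -0.768 and 0.701.

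No member reached an adjusted p under 0.05 with a fold change over 1.5 in any of the 5 comparisons of the edgeR fit of all 19 libraries. Across all genes tested, 0.00297% were called in OWT vs YWT, 0.0267% in YKO vs YWT, 1.29% in OKO vs YKO and 0.0327% in OKO vs OWT, and 0% had an adjusted p under 0.05 for the interaction. DESeq2 at the same thresholds also called 0 of the 9 in each, against 0.401%, 0.416%, 6.23% and 0.22% of all genes in these 4 comparisons and 0.0178% in the interaction. An unadjusted edgeR p under 0.05 was found for Ezh1 in OWT vs YWT (1 of 9, against 4.38% of all genes in either direction), for 0 of 9 in YKO vs YWT (against 4.59%), for Ezh2, Suz12, Jarid2 and Cbx2 in OKO vs YKO (4 of 9, against 15.8%), for Bmi1 and Cbx2 in OKO vs OWT (2 of 9, against 8.14%) and for Cbx2 in the interaction (1 of 9, against 4.62%). Ezh1 was the member with the higher value in the older group, and in the other cases the estimate was below 0. In TMM-normalized CPM, groups did not overlap for Cbx2 in OKO vs YKO, where 2.6% of all genes had groups without overlap, and for Bmi1 in OKO vs OWT, where 0.819% did. By share of the library total both pairs of groups overlapped, with Cbx2 at 0.00187% to 0.00291% in OKO and 0.00275% to 0.00322% in YKO, as did the groups of the other members. In OWT vs YWT and YKO vs YWT the groups overlapped for each of the 9 members, against 4.13% and 5.12% of genes without overlap. OWT vs YWT and YKO vs YWT share the YWT libraries, OKO vs YKO and OKO vs OWT share the OKO libraries, and the interaction uses all of them.

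The members' median log2 fold change was -0.155 in OWT vs YWT, -0.012 in YKO vs YWT, -0.37 in OKO vs YKO and -0.27 in OKO vs OWT. Over all genes tested the medians were -0.0462, -0.0217, 0.2348 and 0.1151, and over the 12324 genes with a mean of at least 5 CPM, a level that each member exceeded, they were 0.0547, 0.0274, -0.1782 and -0.1911. Between 2 and 4 of the 9 members lay above 0 in OKO vs YKO depending on the scaling, with Ezh1 and Cbx7 above 0 under each of them, Bmi1 also under DESeq2 size factors and upper-quartile factors, and Bmi1 and Cbx8 also under library totals without TMM. Library totals raised the median of all genes in that comparison from 0.235 to 0.627. Ezh2, Eed, Suz12, Jarid2 and Cbx2 lay below 0 under each scaling, with Ezh2 at -0.635 and Cbx2 at -0.351 under library totals.

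**Figure D3:**
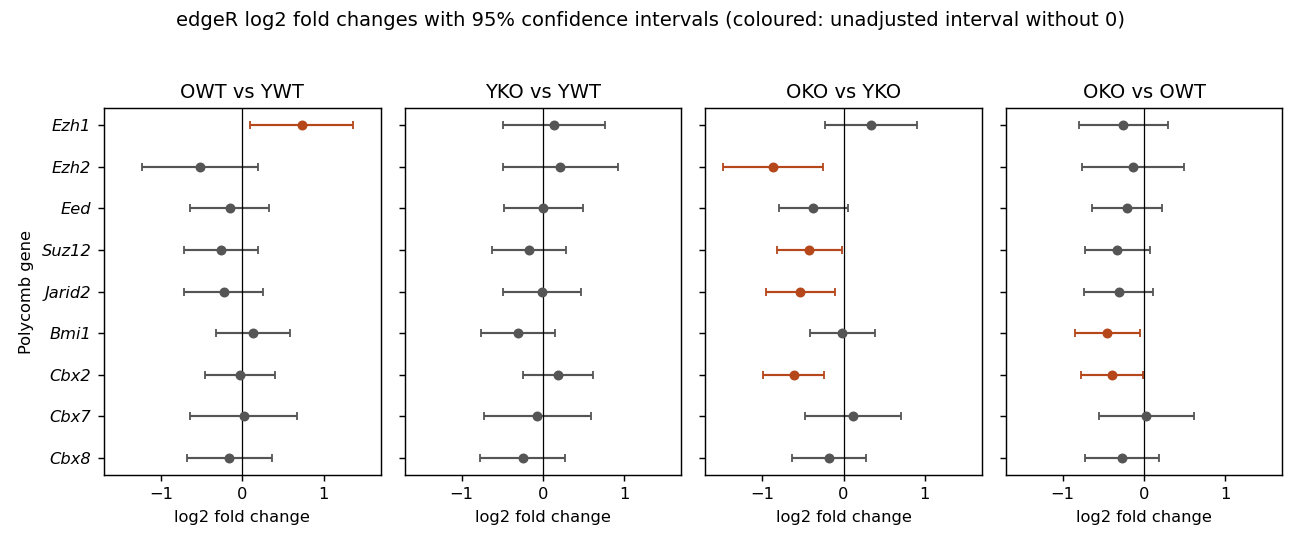
edgeR log2 fold changes (horizontal axes) of the 9 Polycomb genes in 4 comparisons, with 95% confidence intervals that are not adjusted for the number of genes, coloured where the interval leaves out 0. The intervals without 0 are those of Ezh1 in OWT vs YWT, of Ezh2, Suz12, Jarid2 and Cbx2 in OKO vs YKO, and of Bmi1 and Cbx2 in OKO vs OWT.

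The OKO vs YKO values differed by title prefix of the OKO libraries. All YKO libraries lack the prefix, as do OKO1 to OKO3. When only these 3 OKO libraries were compared with YKO, 3 of the 9 members fell past both thresholds, against 17.9% of the 35140 genes tested in that fit. Cbx2 fell by 0.87 on the log2 scale (edgeR adjusted p = 0.00614), Jarid2 by 0.85 (adjusted p = 0.0117) and Eed by 0.74 (adjusted p = 0.0117), while Ezh2, with the largest log2 fold change of the 9, -1.01, had an adjusted p of 0.0513. Cbx2 was 14.5 to 20 CPM in OKO1 to OKO3 against 28.8 to 33.8 in YKO, Jarid2 40.7 to 61.2 against 86.3 to 110, and Eed 34.6 to 57.1 against 69.1 to 83.3, without overlap. These 3 of 9 stood against 29.2% of all genes without overlap between the same libraries. By share of the library total the Eed groups overlapped, with 0.00709% in OKO2 against 0.00661% in YKO2. With the title prefix as a covariate across all libraries, Cbx2, Jarid2, Eed and Ezh2 fell past both thresholds (4 of 9, against 19.1% of genes), by 0.94, 0.91, 0.81 and 1.07 on the log2 scale with edgeR adjusted p of 0.00483, 0.00738, 0.01 and 0.0479. Between the 4 OKO libraries with the prefix and YKO, which do not share a prefix, no member was called, against 0.815% of genes. There the log2 fold changes were -0.71 for Ezh2, -0.39 for Cbx2, -0.28 for Jarid2 and -0.09 for Eed. Without OKO1 and OKO3 no member was called either (0.834% of genes), with Ezh2 at -0.60 and Cbx2 at -0.47. Leaving out OKO7 had the opposite effect on the count. Without OKO7 both Ezh2 (log2 fold change -1.05, edgeR adjusted p = 0.0333) and Cbx2 (-0.65, adjusted p = 0.0431) were called, against 5.47% of genes. Without YKO1 and YKO2, the libraries with the highest B cell and T cell sums, no member was called (0.0542% of genes), and Ezh2 and Cbx2 were at -0.90 and -0.62.

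**Figure D4:**
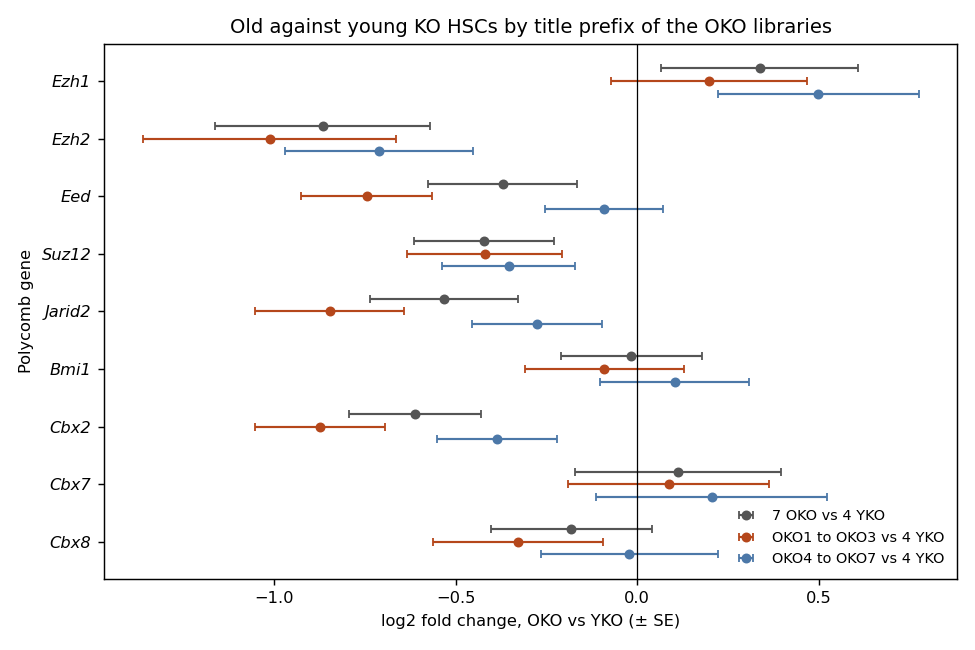
Log2 fold changes of the 9 Polycomb genes in OKO vs YKO with their standard errors (horizontal axis), for all 7 OKO libraries, for OKO1 to OKO3 without the title prefix and for OKO4 to OKO7 with IB15, each against the same 4 YKO libraries. Eed, Jarid2 and Cbx2 lie farther below 0 with OKO1 to OKO3 (-0.74, -0.85 and -0.87) than with OKO4 to OKO7 (-0.09, -0.28 and -0.39).

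OKO vs OWT can be read within the prefix, since all OWT libraries and OKO4 to OKO7 carry it. When OKO1 to OKO3 were left out no member was called in this comparison, against 0.0801% of genes. Bmi1 was 47.1 to 66 CPM in OKO4 to OKO7 and 66.5 to 84.2 in OWT, without overlap, as for 1.83% of all genes, although the highest OKO and the lowest OWT value lay less than 1 CPM apart and these groups overlapped by share of the library total, with 0.00675% in OKO4 against 0.00604% in OWT2. The other 8 members overlapped. Eed, at -0.21 in OKO vs OWT with all libraries, was at 0.07 within the prefix. In YKO vs YWT, where all 8 libraries lack the prefix, the 9 log2 fold changes lay between -0.31 for Bmi1 and 0.21 for Ezh2, and all 9 intervals covered 0. The interval of Eed, -0.483 to 0.488, and that of Cbx2, -0.243 to 0.62, show the size of difference that 4 libraries a group leave possible. The age difference in knockout minus that in wild-type HSCs was -0.58 for Cbx2 (SE 0.277, interval -1.155 to -0.005, edgeR adjusted p = 0.811). For the other 8 members the interval of that difference covered 0.

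The members fell into unlike patterns across libraries. Over the 19 libraries, log2(CPM + 1) of Ezh2 correlated with that of Suz12 at r = 0.85 and of Eed at 0.83, Eed with Suz12 at 0.72, and Jarid2 with Cbx2 at 0.84. With group means removed these were 0.84, 0.78, 0.58 and 0.73. Ezh1 and Cbx7 formed another pair, at 0.76 across libraries and 0.9 within groups, and Ezh1 and Ezh2 went opposite ways, at -0.51 and -0.42. The highest r of Bmi1 with another member was that with Jarid2, at 0.52 across libraries and 0.6 within groups. These values describe 19 libraries that share a sorting scheme, kit, scaling and, in part, sequencing batch. They rest on TMM-normalized CPM and were not recomputed without OKO1 and OKO3 or by share of the library total.

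Ezh2 tracked the genes of DNA replication and mitosis most closely. The summed CPM of 24 cell cycle genes, none of them a member, was 2787 to 4434 in YWT, 2052 to 3264 in OWT and 3456 to 5417 in YKO. In OKO it was 734 in OKO1 and 703 in OKO3, 3178 in OKO2, 2319 to 2743 in OKO4 to OKO6 and 4733 in OKO7. In TMM-normalized CPM, OKO1 and OKO3, which had the lowest sums, were also the lowest libraries for Ezh2, Eed and Cbx2. On that scale OKO7 had the highest Ezh2 and Eed of the OKO group. By share of the library total the lowest library was OKO5 for Ezh2, at 0.00254%. For Eed and Cbx2 it was YWT2, at 0.0049% and 0.00186%. Within OKO the highest shares were 0.00857% for Ezh2 in OKO2 and 0.00741% for Eed in OKO6. The correlations that follow are between TMM-normalized CPM and the cell cycle sum on the same scale. On log2 scales Ezh2 correlated with this sum at r = 0.94 (Spearman's rho 0.94, n = 19), and at 0.93 without OKO1 and OKO3, at 0.98 among the 11 libraries without the prefix and at 0.92 among the 8 with it. Only 2.13% of the 12324 genes with a mean of at least 5 CPM had a higher r. Eed followed at r = 0.9 (rho 0.83), which was 0.69 without OKO1 and OKO3, and 5.71% of those genes had a higher r than Eed over all libraries. For Cbx2, Jarid2 and Suz12 r was 0.82, 0.75 and 0.74, and 15.2%, 22.2% and 23.1% of those genes had a higher r. It went down to 0.49, 0.42 and 0.55 without OKO1 and OKO3. Among the 8 prefixed libraries it was 0.11, 0.03 and 0.4, so for Cbx2 and Jarid2 the relation rested on the libraries without the prefix. For Cbx8 r was 0.48, with 46.3% of those genes higher, and 0.07 without OKO1 and OKO3. Bmi1, Cbx7 and Ezh1 gave r of 0.15, -0.2 and -0.35, and Ezh1 was at -0.58 without OKO1 and OKO3. The log2 ratio of Ezh1 to Ezh2 had r = -0.79 with the sum and -0.81 without OKO1 and OKO3. Of the 24 cell cycle genes 0 were called in OKO vs YKO by edgeR, against 1.29% of all genes, and 4 by DESeq2, against 6.23%. Those 4 were the replication licensing genes Mcm2, Mcm3, Mcm6 and Mcm7, each lower in OKO. At an unadjusted edgeR p under 0.05, 14 of the 24 had a lower value, against 15.8% of all genes in either direction. The median log2 fold change of the 24 genes was -0.95. The part of cell cycle genes, of title prefix and of other cell types in the members' values was not tested.

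**Figure D5:**
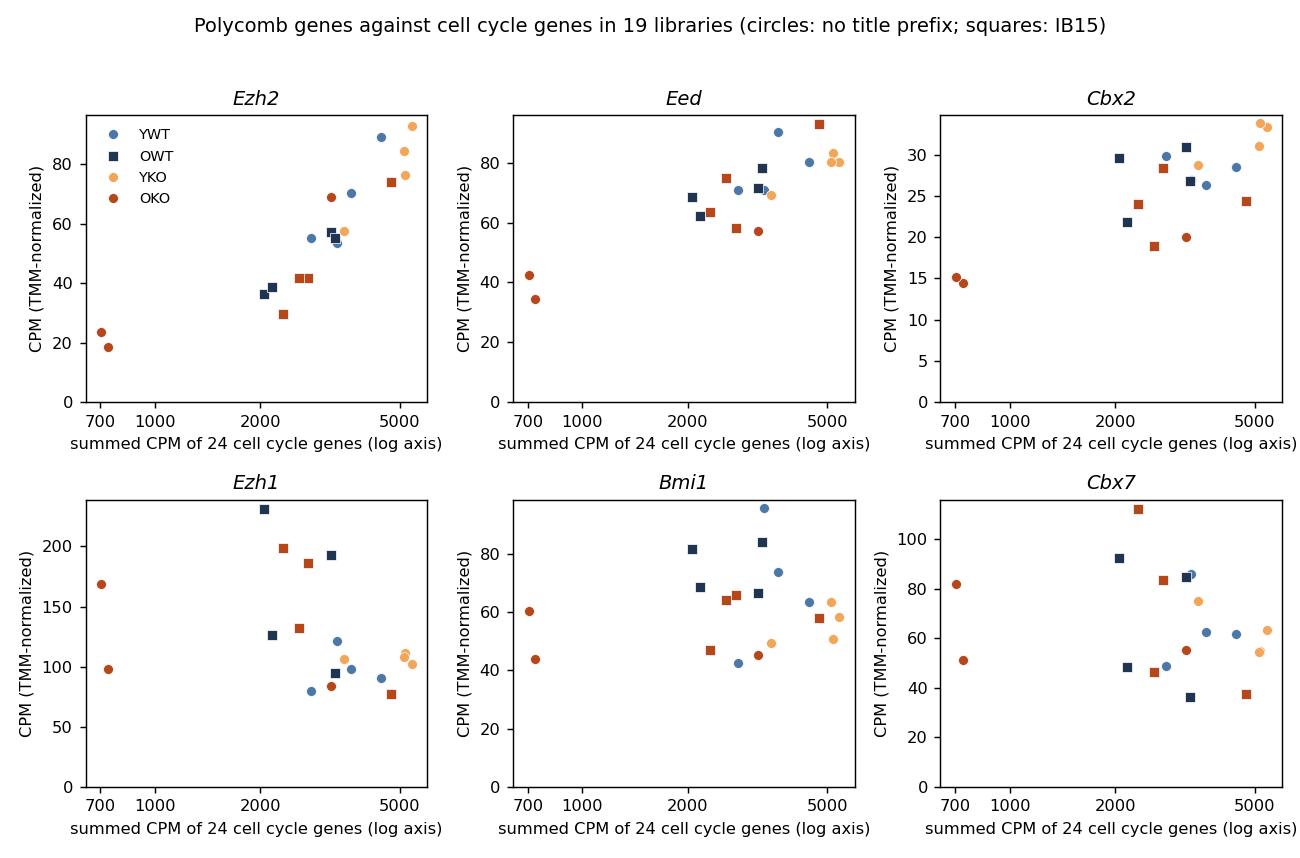
CPM of Ezh2, Eed, Cbx2, Ezh1, Bmi1 and Cbx7 (vertical axes) against the summed CPM of 24 cell cycle genes (log axis) in each of the 19 libraries, coloured by group, with circles for libraries without a title prefix and squares for IB15. Ezh2 goes from 18.4 and 23.5 CPM in OKO1 and OKO3, the libraries with sums of 734 and 703, to 92.6 in YKO1 with a sum of 5417, whereas the r of Ezh1, Bmi1 and Cbx7 with the sum is -0.35, 0.15 and -0.2.

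Among the 12323 other genes with a mean of at least 5 CPM, those most like each member over the 19 libraries were taken by Pearson's r of log2(CPM + 1). For Ezh2 they were Nasp, a histone chaperone, Pole2, a subunit of DNA polymerase epsilon, and Srsf10, a splicing factor, at 0.97, 0.96 and 0.96. Ptges3, Ube2a and Sf3a3 reached 0.97 each with Eed, and Mbnl1, Ppp4r3a and Slmap 0.92, 0.92 and 0.91 with Suz12. Tbc1d1, Pank2 and Rasa3 were nearest to Jarid2 at 0.95, 0.94 and 0.93. Ezh1 was most like Trim62, the kinase gene Jak3 and the kinase gene Ptk2b, at 0.93, 0.93 and 0.92. Cbx7 was most like Pkd1, Khnyn and Phf1, at 0.9 each, and Phf1 encodes an accessory subunit of PRC2. Fastkd3 and the mismatch repair gene Msh6 reached 0.91 each with Cbx2. The nearest genes of Bmi1 (Ttc19, Eif5 and Smim10l1, at 0.86, 0.83 and 0.82) and of Cbx8 (Napg, Tmem101 and 1600014C10Rik, at 0.85, 0.84 and 0.82) had the lowest r of the 9.

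Of 37 other Polycomb genes, 36 were tested and 0 were called by edgeR in any comparison. At an unadjusted p under 0.05 there were 0 in OWT vs YWT, 1 higher in YKO vs YWT (Kdm2b), 1 higher (Phc3) and 5 lower (Kdm2b, L3mbtl2, Bcor, Asxl1 and Rbbp4) in OKO vs YKO, 1 higher in OKO vs OWT (Asxl3) and 1 lower in the interaction (Kdm2b). The 6 of 36 in OKO vs YKO, 16.7%, stood against 15.8% of all genes, the 1 of 36 in YKO vs YWT, 2.78%, against 4.59%, and the same share in OKO vs OWT and the interaction against 8.14% and 4.62%. Of these, Bcor, Asxl1, Rbbp4 and Asxl3 are named because of this p, after their values were seen. DESeq2 called 4 of the 36 in OKO vs YKO, against 6.23% of all genes, and 0 in the other comparisons. Phc3 was higher and Bcor, Kdm2b and L3mbtl2 were lower. Over the 36 genes the median log2 fold changes were 0.065, -0.042, 0.0125 and -0.1665, beside -0.155, -0.012, -0.37 and -0.27 for the members. By subcomplex, the 7 other PRC2 genes tested had a median of -0.114 in OKO vs YKO, the 10 of canonical PRC1 -0.035, the 13 of non-canonical PRC1 0.013, the 4 of the PR-DUB complex, which removes ubiquitin from histone H2A, 0.0205, and the 2 H3K27 demethylases 0.185. Kdm2b, which targets non-canonical PRC1 to unmethylated CpG islands, was 106 ± 11.9 CPM in YKO (SD, n = 4) and 71.3 ± 11 in YWT (n = 4), a log2 fold change of 0.57 (SE 0.215, edgeR adjusted p = 0.859). L3mbtl2, another non-canonical PRC1 subunit, was 106 ± 15.1 CPM in YKO and 73.5 ± 8.94 in YWT (log2 fold change 0.53), and 64.2 ± 21.1 in OKO (log2 fold change against YKO -0.73, SE 0.224, edgeR adjusted p = 0.109). Phc3, a polyhomeotic subunit of PRC1, was 15.9 ± 4.62 CPM in YKO and 26.8 ± 8.94 in OKO (log2 fold change 0.75, SE 0.282, edgeR adjusted p = 0.189). Among the other Polycomb genes with a mean of at least 5 CPM, the largest differences in OWT vs YWT were those of Epop, 23.5 ± 5.42 against 16 ± 2.74 CPM (log2 fold change 0.55), and Mga, 78.1 ± 20.9 against 106 ± 21.2 CPM (-0.44). In OKO vs OWT the largest at that level were those of Pcgf5, 60.6 ± 14.4 against 77.8 ± 13.6 CPM (-0.36), and Rbbp7, 342 ± 90.4 against 433 ± 16.1 CPM (-0.34). Asxl3, below that level at 3.63 ± 3.02 CPM in OKO and 1.44 ± 1 in OWT, had a log2 fold change of 1.33 (edgeR adjusted p = 0.592). Of 5 genes known as Polycomb targets in HSCs or progenitors (Cdkn2a, Cdkn2b, Hmga2, Lin28b and Igf2bp3) all were tested and 0 were called by edgeR or DESeq2 in any comparison. Cdkn2a, the cell cycle inhibitor locus that Bmi1 represses, stayed near the detection limit, at 0.187 ± 0.242 CPM in YWT, 0.0851 ± 0.0594 in OWT, 0.158 ± 0.0973 in YKO and 0.123 ± 0.0604 in OKO. Lin28b, a fetal regulator, was 1.28 ± 0.715 CPM in OKO and 0.371 ± 0.217 in OWT (log2 fold change 1.77, edgeR adjusted p = 0.592, unadjusted p under 0.05), and Cdkn2b, a neighbouring inhibitor gene, was 0.197 ± 0.115 in OWT and 0.834 ± 0.643 in YWT (-2.06, edgeR adjusted p = 1). The median of the 5 was -1.089 in OWT vs YWT, -0.24 in YKO vs YWT, 0.386 in OKO vs YKO and 0.54 in OKO vs OWT, with standard errors of up to 1.056 for single genes. Hmga2, the only one of them with a mean of at least 5 CPM, had log2 fold changes between -0.295 and -0.144 in these 4 comparisons.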

How the data were processed

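RNA-seq was analysed in 19 HSC libraries made with the SMART-Seq v4 kit. WGBS samples were not analysed here. A few genes that the rule below would name are not reported here. The authors trimmed reads (Trim Galore 0.4.3), aligned them to mm10 with STAR and a GENCODE M22 index, and deposited raw featureCounts counts per gene, with no normalization. Groups follow the labels, which give female for all libraries, while the study's library sheet lists both sexes.

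The members, gene lists and tests were chosen with earlier results of these data known. Counts were filtered with filterByExpr, scaled by TMM and tested with edgeR 4.0.16 (quasi-likelihood, R 4.3.3, limma 3.58.1) with the 19 libraries fitted together and a mean for each group. Calls needed a Benjamini-Hochberg adjusted p under 0.05 over the 33690 genes tested and a fold change over 1.5, or the adjusted p alone for the interaction. The paper's methods name DESeq2 with these thresholds, for more libraries than the 19 used here. The pipeline they link is, by its name, pairwise and with RUV, an adjustment for unwanted variation. DESeq2 1.42.0 was an alternative here, with the 19 libraries fitted together and without RUV, so it does not repeat the paper's procedure. The procedure was first tested on simulated counts. CPM are TMM-normalized, logarithms used CPM + 1, and ratios used counts + 0.5. Named genes were the 9 members, the 3 genes most correlated with each among those with a mean of at least 5 CPM, and the 2 largest log2 fold changes per comparison among other Polycomb genes at that level. Kb are exonic lengths in GENCODE M21, over all annotated exons of a gene together. Over the 39 pairs of libraries within groups, the chi-square per gene was at least 32.4 where counting error alone gives 1, which is no sign of a library deposited again within a group. Alternatives were DESeq2, upper-quartile factors, other filters, adjusted p alone, compared groups only, title prefix, sex, replicate number, and leaving out each library. Library totals without TMM, OKO with IB15 only, and leaving out YKO1 and YKO2 or OKO1 and OKO3 were added after seeing the data.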

Additional observations from a re-analysis of the deposited data

Results flagged for a closer look

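Cbx8, a chromobox subunit of PRC1, was 14.3 CPM in OKO5 and 7.08 to 9.85 CPM in the other 6 OKO libraries, a gap that is large beside the range of the group. The 9 members were examined in 4 groups, 36 sets of values in all, of which 1 stood out in this way, and chance alone would give 1.8. OKO5 also had the highest Ezh1 and Cbx7 of the OKO group in TMM-normalized CPM, at 199 and 112. These results depended on the scaling. By share of the library total Cbx8 was 0.00122% in OKO5 and 0.00138% in OKO1. On that scale Ezh1 and Cbx7 were highest in OKO3, at 0.0238% and 0.0115%.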

How the results depend on the processing

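The count of members called was 0 in all 5 comparisons and stayed 0 under each alternative except in OKO vs YKO. There it was 4 of 9 with the title prefix as a covariate, against 19.1% of all genes. With OKO of 1 title prefix only it was 3 of 9, against 17.9%. When each library was left out in turn it was 0 to 2, with 2 without OKO7, against 5.47% of genes. The cause was not tested. The 45 log2 fold changes (9 members in 5 comparisons) were recomputed under 33 settings, which gave 1386 values. A change of sign occurred in 110 of these, of which 108 concerned 18 of the 28 log2 fold changes smaller than their standard error, for which no direction is given, and 2 concerned Eed in OKO vs OWT, at 0.045 with the title prefix as a covariate and 0.073 with OKO of 1 title prefix only. All genes called in OKO vs YKO numbered 434 in the reported fit, 2100 with DESeq2, 1774 with the replicate block and 6420 with the title prefix. With the replicate block 0 members were called, against 5.27% of genes in OKO vs YKO, where Ezh2 was at -1.10 and Eed at -0.71. Same-numbered libraries did not vary together, with correlations from -0.47 to 0.3 between their deviations, so the numbers are names only. With sex from the library sheet in a fit without OWT, 0 members were called, against 0.738% of genes in OKO vs YKO. Depth did not limit these genes, since the lowest count was 216, but 4 libraries a group leave intervals about 1 log2 unit wide, and OWT has libraries of 1 title prefix only.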
